A study of Saccharomyces cerevisiae with 6 samples.

Results

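The mitochondrial ribosomal protein genes of budding yeast (Saccharomyces cerevisiae) were followed across 6 RNA-seq libraries in which the protein kinase Rio1 had or had not been depleted. Members were the nuclear genes whose standard name in the R64 gene table is MRP, MRPL, MRPS or RSM with a number, together with RML2, IMG1, IMG2, YML6, NAM9, PET123, SWS2 and MNP1. This rule found 75 of the 6692 gene rows, of which 43 encode large-subunit proteins, 31 small-subunit proteins and 1, MRP8, has no established place in either subunit. The Rio1-depleted group holds 3 libraries of cells that had been in 500 µM auxin for 1 h. The control group holds 3 libraries of cells that received no auxin. All 6 came from exponential cultures in YPD at 23 °C. Per the strain and source fields both groups were W303, MATa, with ura3-1, his3-11,15, can1-100, trp1-1, ade2-1 and a leu2 allele, and carried the degron allele RIO1-AID and PADH1-OsTIR1. OsTIR1, a plant F-box protein driven here by the ADH1 promoter, directs the tagged protein to the proteasome when auxin is present. Controls are named wild type in the titles, and no library had auxin with untagged Rio1, so auxin itself and loss of Rio1 cannot be told apart. Whether replicates were grown apart is not labelled, and p-values reflect only how far these libraries differed, partly for technical reasons perhaps.

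Mitochondria translate a handful of proteins of their own, most of them core subunits of the respiratory chain and the ATP synthase. Their ribosome is of bacterial descent, with RNA encoded in the mitochondrial genome and proteins that are nearly all encoded in the nucleus, made in the cytosol and imported. In yeast many of these mRNAs are bound after the stop codon by Puf3, an RNA-binding protein of the Pumilio family that acts in their localization, translation and decay. Rio1 acts in the maturation of the small subunit of the cytosolic ribosome, a separate machine.

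The Puf3 core was the feature that members shared most widely, and it was not used to choose them. The core was searched as TGTANATA on the coding strand in the 200 bases after each stop codon of the R64 genome, which is the reference strain and not W303. It was found in 73 of 75 members (97.3%), against 844 of 6002 protein-coding nuclear genes (14.1%). All 43 large-subunit genes and 30 of 31 small-subunit genes held it. The exceptions were RSM22, whose product resembles a methyltransferase, and MRP8. The sites of the 9 members whose values are given in every library below are shown with the core in capitals, 5′ to 3′ on the coding strand, with R64 positions.
MRPL32, chrIII:119211-119230, plus strand: taagccTGTATATAgaaact
MRPL39, chrXIII:251212-251231, minus strand: ttatccTGTAAATAagtaat
MRPL27, chrII:768703-768722, plus strand: tatgcgTGTAAATActagtt
MRPL38, chrXI:131140-131159, plus strand: accaccTGTATATAttgctt
MRPL51, chrXVI:730255-730274, plus strand: tatactTGTATATAtaattt
MRP2, chrXVI:876219-876238, minus strand: cgcactTGTAAATAaataca
MRP51, chrXVI:327702-327721, plus strand: gagttcTGTAAATAaataaa
MRP10, chrIV:372585-372604, plus strand: tggcctTGTATATAcaaatt
RSM7, chrX:638197-638216, minus strand: cttgccTGTACATAaacaca
The free position of the core was A in 40, T in 29, C in 17 and G in 1 of 87 matches, and 13 members held the core more than once. The matches began 8 to 165 bases after the stop codon, with a median of 56. A match describes these letters and does not show binding in these cells.

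**Figure D1:**
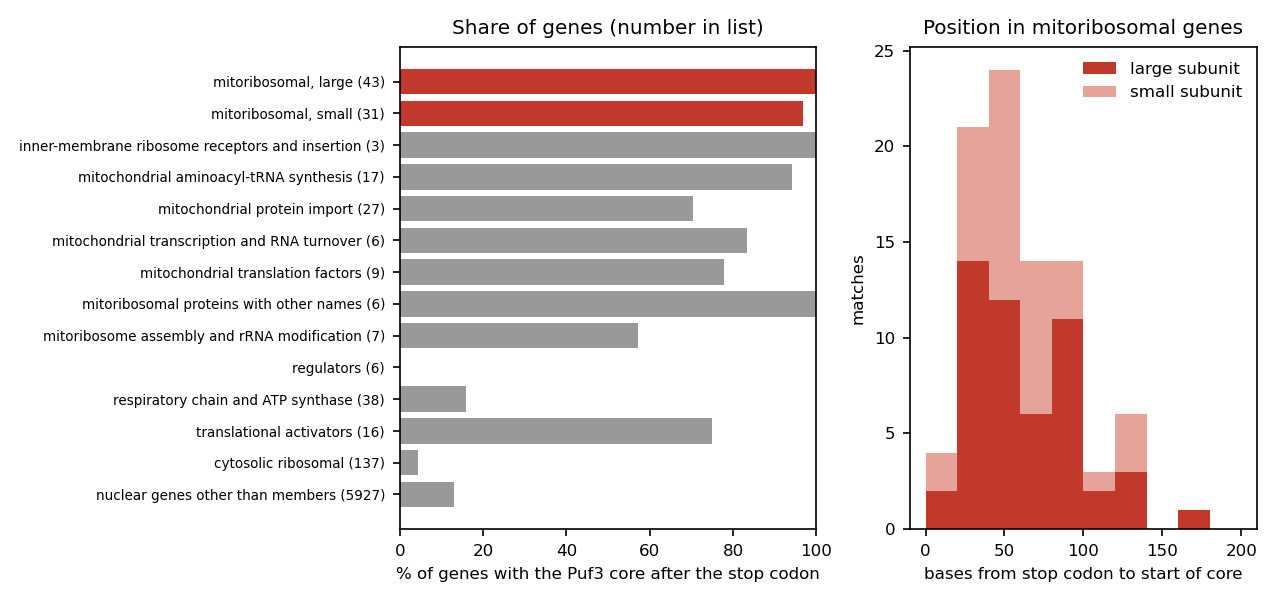
Left, the percentage of genes in each list with the Puf3 core in the 200 bases after the stop codon, with list sizes in brackets. Right, the distance in bases from the stop codon to the core for the 87 matches in large-subunit (dark red) and small-subunit (light red) genes, stacked; the bars for both subunits reach 100% and 96.8%, against 13.0% for nuclear genes other than members, and the median distance is 56 bases.

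Lists of genes for other steps of mitochondrial gene expression varied in how many held the core. It was present in 16 of 17 genes of mitochondrial aminoacyl-tRNA synthesis, 12 of 16 translational activators, 7 of 9 translation factors, 6 of 6 mitoribosomal proteins with other names and 4 of 7 genes of mitoribosome assembly and rRNA modification, the last list including RSM22. By contrast, 6 of 38 nuclear genes for the respiratory chain and ATP synthase (15.8%) and 6 of 137 cytosolic ribosomal protein genes (4.38%) held it. In promoter windows (250 bases before to 50 after the start codon, both strands) none of 3 elements was at a higher share in members. CCAAT, the core bound by the Hap activator complex, was in 41.3% of member promoters and 43.3% of all promoters. AATTTT, an element described upstream of mitoribosomal genes in other yeasts, was in 42.7% and 51.7%, and GATGAG, the core of the PAC element of ribosome assembly genes, in 14.7% and 20.4%.

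Levels of most members were similar, with MRPL39 far above and MRPL38 far below the rest. Values are CPM, gene counts brought to a common library total after TMM scaling, a correction for changes in library composition. Per kb of coding length, the median over the 6 libraries was 106.6 CPM for large-subunit and 114 CPM for small-subunit genes, with quartiles of 83.9 to 178 and 86.6 to 153. The median of the cytosolic ribosomal protein genes was 2170 CPM per kb, without reads mapped to several places. No member had another match of at least 50 bases at 90% identity in the R64 genome, so reads shared between near-identical copies, which affect many cytosolic ribosomal protein genes, were not found to be a concern here. Members lie on 14 of the nuclear chromosomes, and only MRPS12 and RSM19 are direct neighbours (chromosome XIV, 694361 to 694822 and 695052 to 695327, both on the minus strand).

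The abundant end of the large subunit was led by MRPL39, the bL33 protein, at 1384 CPM per kb over a coding length of 213 bases. MRPL39 (YML009C, chromosome XIII, 251304 to 251516) stood at 318, 288 and 271 CPM in Rio1-depleted libraries 1 to 3 and at 266, 340.5 and 285.5 CPM in control libraries 1 to 3. The groups overlapped, with a log2 fold change of -0.03 ± 0.11 (SE, n = 3 per group; edgeR adjusted p = 0.863). Next came MRPL27 (YBR282W, chromosome II, 768240 to 768680), a mitochondria-specific protein, at 274 CPM per kb. It stood at 129.7, 151 and 132 CPM in Rio1-depleted libraries and at 92.95, 123 and 95.6 CPM in control libraries. The depleted libraries all lay above the controls, but the gene just missed the threshold (log2 fold change 0.40 ± 0.15, edgeR adjusted p = 0.0505) and passed it without control library 2 (0.0333).

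In the small subunit MRP2 and MRP51 were the most abundant per kb, at 282 and 245 CPM. MRP2 (YPR166C, chromosome XVI, 876282 to 876629), the uS14 protein, stood at 81.7, 117 and 129 CPM in Rio1-depleted libraries and at 87.2, 77.8 and 95.6 CPM in control libraries. MRP51 (YPL118W, chromosome XVI, 326628 to 327662), whose product acts with the leader regions of mitochondrial mRNAs, stood at 325.5, 256 and 226 CPM in Rio1-depleted libraries and at 249, 239 and 229 CPM in control libraries. Both overlapped between the groups, with log2 fold changes of 0.34 ± 0.17 and 0.17 ± 0.13 (SE) and edgeR adjusted p-values of 0.162 and 0.366. MRP2 was called higher without Rio1-depleted library 1 (0.0387).

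MRPL38 and MRPL51 had the lowest mean CPM of the large subunit. MRPL38 (YKL170W, chromosome XI, 130634 to 131050), the universally conserved uL14 protein, had 1, 3 and 0 counts in Rio1-depleted libraries and 2, 0 and 4 in control libraries, and was the member that failed the count filter. MRPL51 (YPR100W, chromosome XVI, 729791 to 730213), a mitochondria-specific protein, had 3.89, 16.5 and 4.93 CPM in Rio1-depleted libraries and 15.7, 11.5 and 14.04 CPM in control libraries, and the groups overlapped (log2 fold change -0.58 ± 0.45, edgeR adjusted p = 0.381). Without Rio1-depleted library 2 its log2 fold change was -1.58 and it was called lower (adjusted p = 0.0300). MNP1, the stalk protein bL12 (named after its values were seen), had 18, 26 and 2 counts in Rio1-depleted libraries and 21, 22 and 31 in control libraries.

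Reads of genes with a neighbour on the opposite strand depend on how they were counted. In R64, 323 of the bases of MRPL51 are also covered by YPR099C on the opposite strand, and reads in such a stretch fall to neither gene unless strand is used in counting, which the sources used here do not state. The files also hold the rows YKL169C and YGL069C, with 14 and 32 counts over all libraries, whose systematic numbers place them next to MRPL38 and MNP1 on the opposite strand. Those rows have no entry in the R64 gene table, so an overlap was not tested. MRP35, the bL35 protein, had as few reads as MNP1, 120 over all libraries, with no such row and no overlap in R64. Its coding length is shorter, 348 against 585 bases, so per kb it stood at 53.6 CPM and MNP1 at 33.7 CPM. Why these genes had few reads was not tested. The 12 members with such a row beside them had a median of 86.6 CPM per kb, from 3.77 for MRPL38 to 1384 for MRPL39, and the other 63 had a median of 125. Over all nuclear genes the medians differed in the same direction, at 38.4 CPM per kb for 954 genes with such a row and 46.0 for 5032 without. MRPL19 shares 113 bases with YNL184C on the same strand, where counting by strand would not separate the genes, so its values are uncertain as well. MRP4 shares 2 bases with YHL005C on the opposite strand, so only its reads over those bases are uncertain.

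**Figure D2:**
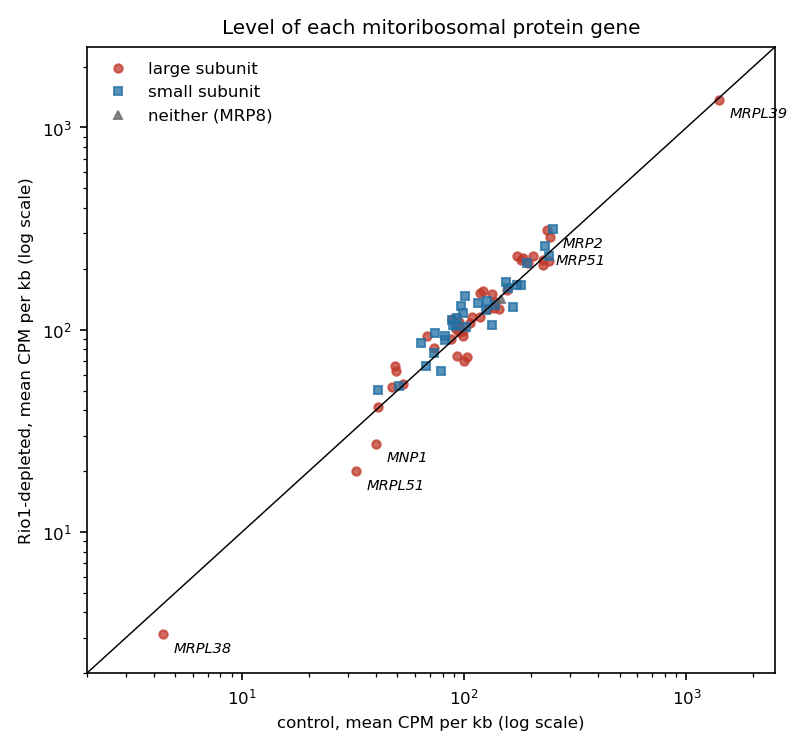
Mean CPM per kb of coding length in Rio1-depleted libraries (vertical, log scale) against control libraries (horizontal, log scale), 1 point per member, with the line of equal levels. Most members lie close to the line. MRPL51, MNP1, MRPL24, MRPL38 and YML6 are among those farthest below it, and MRP10, RML2 and MRP17 among those farthest above. The range runs from MRPL38 (3.77 CPM per kb over all libraries) to MRPL39 (1384).

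MRP10 and RSM7 had the lowest mean CPM of the small subunit; per kb of coding length MRP10 stood at 124 CPM, above the subunit's median, and the lowest were RSM22 at 45.5 and RSM7 at 51.7. MRP10 (YDL045W-A, chromosome IV, 372248 to 372535), a small protein with paired cysteine motifs, had 45.4, 50.5 and 30.6 CPM in Rio1-depleted libraries and 27.2, 24.8 and 35.4 CPM in control libraries. RSM7 (YJR113C, chromosome X, 638232 to 638975), the uS7 protein, had 57.1, 38.3 and 21.7 CPM in Rio1-depleted libraries and 41.5, 33.6 and 38.8 CPM in control libraries. The groups overlapped for both, with log2 fold changes of 0.51 ± 0.26 and 0.01 ± 0.29 (SE) and edgeR adjusted p-values of 0.164 and 0.976.

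After 1 h of auxin, few mitoribosomal protein genes passed the test. Of 74 tested members, 1 was higher and none lower in Rio1-depleted cells at an edgeR adjusted p under 0.05, which is 1.35% of the members, where 28.3% of the 5195 tested genes were called (14.1% higher and 14.1% lower). At an unadjusted p under 0.05, 7 members were higher and 3 lower (13.5%), where 38.5% of all tested genes passed. Among 2204 tested genes between 39.5 and 132 CPM, the range of the middle 80% of members, 23% were called. The median log2 fold change was 0.05 for the large and 0.15 for the small subunit, beside 0.01 for all tested genes. DESeq2 called 0 members. Leaving out 1 library gave 0 to 3 members higher and 0 to 2 lower: 3 higher without Rio1-depleted library 1, 1 higher and 2 lower without Rio1-depleted library 2, none without Rio1-depleted library 3, 1 lower without control library 1 or 3, and 1 higher without control library 2.

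The called gene was MRPL32 (YCR003W, chromosome III, 118620 to 119171), the bL32 protein, which joins the ribosome after it has been cut by the m-AAA protease of the inner membrane. It stood at 101.2, 154 and 128 CPM in Rio1-depleted libraries and at 109, 84.0 and 93.6 CPM in control libraries, so the lowest depleted library lay below the highest control. The difference on the log2 scale was 0.45 ± 0.17 (SE, 3 libraries per group) with an edgeR adjusted p of 0.0490. The call was lost with RLE size factors (adjusted p = 0.0512), in DESeq2 (0.122), with no count filter (0.0531) and without control library 1, 2 or 3 or Rio1-depleted library 2 or 3, where the adjusted p ran up to 0.241.

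The intervals of the other members bound how large a change these libraries allow. The 95% interval of the fold change lay within 2-fold in either direction for 69 of 74 members, and within 1.5-fold for 38. The interval included 0 for 34 of 42 large-subunit and 29 of 31 small-subunit genes. The 5 members whose interval reached past 2-fold were MNP1, MRPL24, MRPL44 and MRPL51 towards lower values and MRP10 towards higher values (named after their values were seen). The median standard error on the log2 scale was 0.19 for the large and 0.17 for the small subunit. A member that missed the threshold was therefore not shown to be unchanged, only bounded by its interval.

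**Figure D3:**
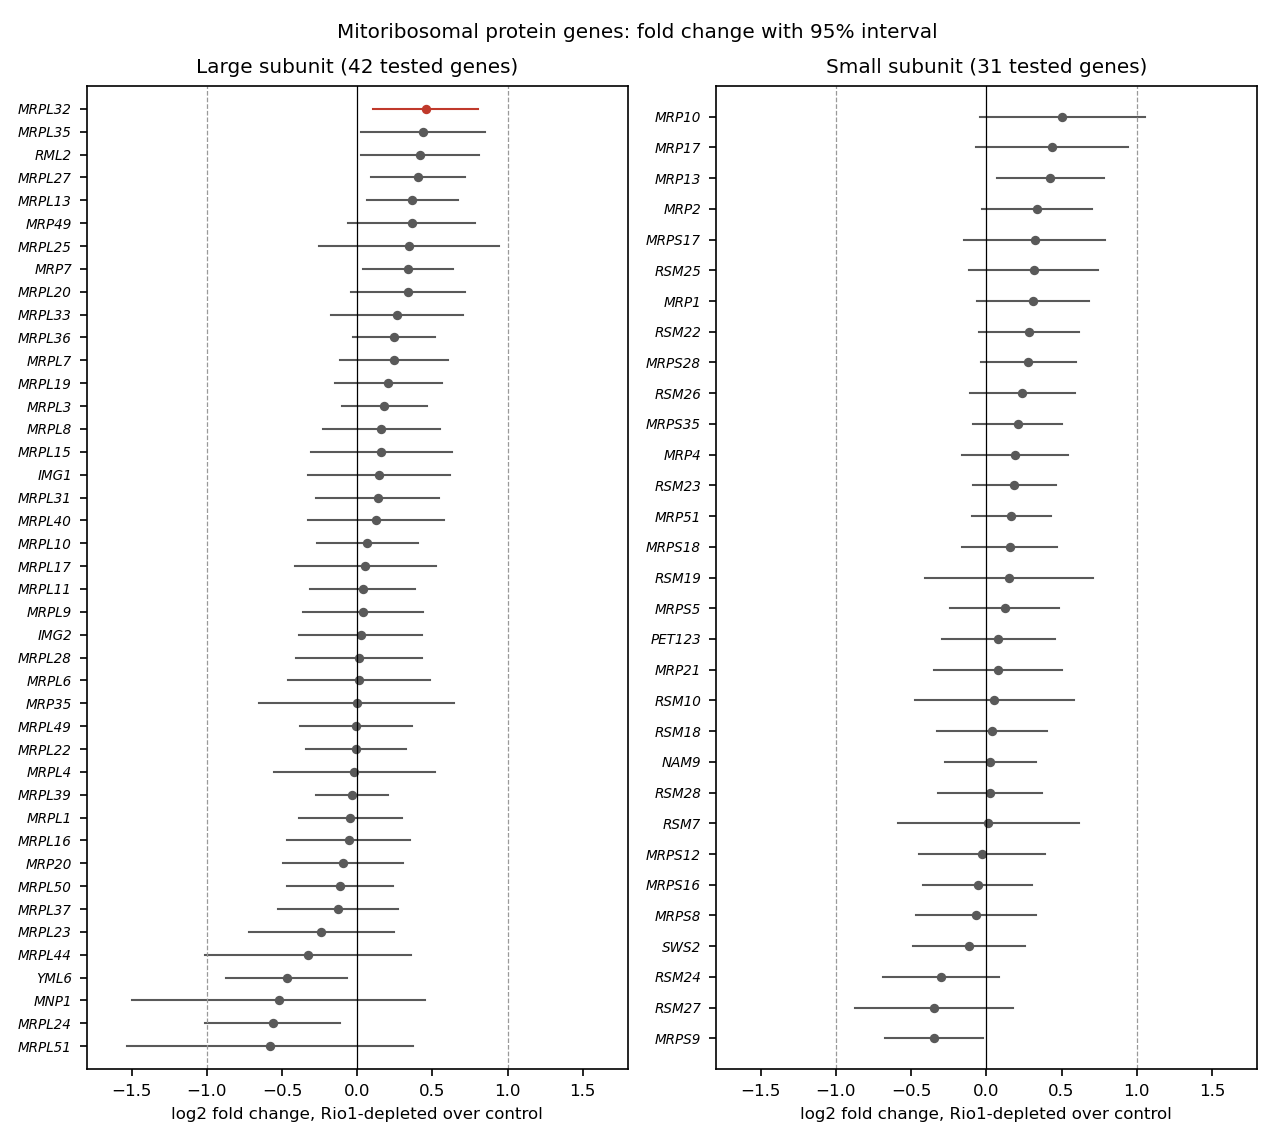
Log2 fold change of each tested member, Rio1-depleted over control, with its 95% interval, ordered by size within the large subunit (left, 42 genes) and the small subunit (right, 31 genes); dashed lines mark 2-fold. MRPL32, in red, is the called gene (0.45), and all but 5 intervals stay within the dashed lines.

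Some large-subunit proteins lie at the peptidyl transferase region or the tunnel that leads from it. RML2, the uL2 protein, had a log2 fold change of 0.42, with a 95% interval of 0.03 to 0.81, and MRP7, the bL27 protein, one of 0.34, with an interval of 0.04 to 0.64. YML6, the uL4 protein, had a log2 fold change of -0.47, with an interval of -0.87 to -0.07, and MRPL9, the uL3 protein, one of 0.04. None of these 4 passed the adjusted test, although RML2 was called higher and YML6 lower when Rio1-depleted library 2 was left out. Around the polypeptide exit, log2 fold changes were -0.02 for MRPL4 (uL29), -0.09 for MRP20 (uL23), -0.01 for MRPL22 (uL22), 0.13 for MRPL40 (uL24), 0.16 for MRPL8 (bL17) and 0.45 for MRPL32 (bL32), of which MRPL32 was called. At the base of the stalk, MRPL11 (uL10) was at 0.04 and MRPL19 (uL11) at 0.21. These genes and those of the next 3 paragraphs were grouped by role or singled out after their values were seen.

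None of the small-subunit genes was called. MRPS12, the uS12 protein of the decoding centre, had a log2 fold change of -0.03, and NAM9, the uS4 protein, one of 0.03. MRPS5 (uS5) was at 0.12 and MRPS18 (uS11) at 0.16. MRPS9, the uS9 protein, was the lowest of the subunit at -0.35, with a 95% interval of -0.67 to -0.03, and was called lower only when control library 3 was left out. RSM23, a GTP-binding protein related to human DAP3, was at 0.19, and PET123 at 0.08.

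The mitochondria-specific proteins, which have no bacterial counterpart, were set beside those with one, and none of the first set was called. In the large subunit the median log2 fold change was 0.16 for 15 mitochondria-specific genes and 0.01 for 27 tested genes with a bacterial homolog. In the small subunit it was 0.21 for 11 and 0.08 for 19. The largest values among them were MRPL35 at 0.44, MRP13 at 0.42 and MRP10 at 0.51, and the lowest were RSM27 at -0.35 and MRPL51 at -0.58. These splits were not tested.

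The groups did not overlap for 10 of 74 members (13.5%), where 40.6% of all tested genes did not overlap, or 36.1% of those in the same CPM range. In 9 of them the depleted libraries were higher, as in 20.6% of all tested genes: MRPL27, MRPL13, MRP49, MRP7, MRPL36, MRP13, RSM22, MRPS28 and RSM23. MRPS28, the uS15 protein, stood at 105, 100.1 and 106.5 CPM in Rio1-depleted libraries, above 80.1, 90.2 and 84.9 CPM in control libraries. RSM24 was the 1 member with all depleted libraries lower, as in 20% of all tested genes, at 59.7, 62.7 and 57.2 CPM, against 88.7, 64.6 and 72.2 CPM in control libraries. Neither gene passed the adjusted test, with log2 fold changes of 0.28 and -0.30 and edgeR adjusted p-values of 0.180 and 0.242.

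Rio1-depleted library 3 had the lowest median level of large-subunit genes among the 6 libraries and the highest of small-subunit genes. The median large-subunit gene stood at 79.8, 83.1 and 67.1 CPM in Rio1-depleted libraries 1 to 3 and at 77.2, 76.5 and 77.6 CPM in control libraries 1 to 3. The median small-subunit gene stood at 81.7, 80.1 and 85.8 CPM in Rio1-depleted libraries and at 71.5, 77.8 and 77.6 CPM in control libraries. Reads on large-subunit genes per read on small-subunit genes came to 1.24, 1.33 and 1.21 in Rio1-depleted libraries and to 1.30, 1.25 and 1.31 in control libraries, so the balance of the subunits overlapped between the groups.

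Set against the cytosolic ribosome, the mitochondrial one took a larger place among the reads of depleted cells. Mitoribosomal genes took 0.741%, 0.757% and 0.692% of the gene counts in Rio1-depleted libraries 1 to 3 and 0.530%, 0.565% and 0.543% in control libraries 1 to 3. Their exact 95% binomial intervals, which cover counting error only, ran from 0.675% to 0.774% in Rio1-depleted libraries and from 0.514% to 0.578% in control libraries. The cytosolic ribosomal protein genes took 11.3%, 11.3% and 11.5% in Rio1-depleted libraries and 25.2%, 24.9% and 24.7% in control libraries. For every 100 cytosolic ribosomal protein reads there were 6.42 ± 0.38 mitoribosomal reads in Rio1-depleted libraries and 2.19 ± 0.08 in control libraries (SD, n = 3 each), a ratio of 2.93, and the groups did not overlap. This ratio does not depend on the scaling of the libraries. Reads mapped to several places are not among the gene counts, so reads shared between near-identical cytosolic copies are missing. How many were missing was not measured, and the ratio within each group may be too high. The mitoribosomal share itself was 1.34 times as high in Rio1-depleted as in control libraries. Among cytosolic ribosomal protein genes, 76 of 79 tested large-subunit and 56 of 56 small-subunit genes fell, with median log2 fold changes of -1.48 and -1.45.

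The scaling of the libraries sets how these shares read as fold changes. TMM scaling places the median of all tested genes at 0.01, whereas scaling by library totals places it at 0.32. Under library totals 29 members were called higher and none lower, with medians of 0.36 for the large and 0.46 for the small subunit, and 33.6% of all tested genes were called higher. Relative to the median of all genes, the subunits then stood about where they stood under TMM. Reads in these libraries measure shares of the RNA, so less of a transcript per cell and fewer cells with it cannot be told apart, and the amount of RNA per cell was not measured.

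**Figure D4:**
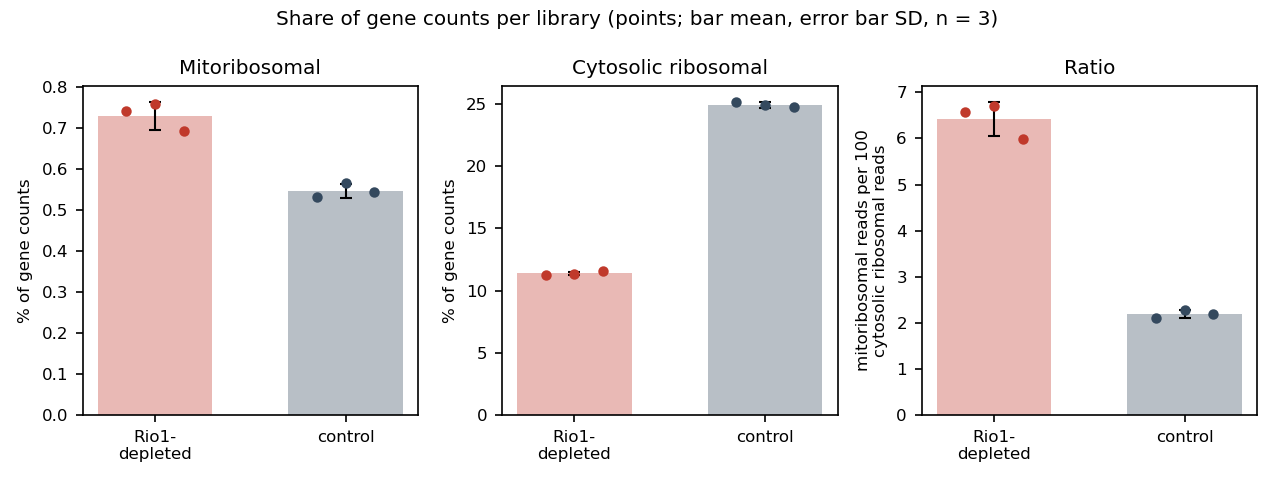
Percentage of gene counts on mitoribosomal genes (left) and cytosolic ribosomal protein genes (middle) and mitoribosomal reads per 100 cytosolic ribosomal protein reads (right), Rio1-depleted libraries left of controls in each panel; points are libraries, bars means and error bars SD (n = 3). The groups separate in every panel, with mean ratios of 6.42 and 2.19 in the right panel.

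Depth limits the precision of single members. Gene counts came to 683896, 1048376 and 903161 in Rio1-depleted libraries and to 788498, 1244756 and 1671136 in control libraries, so 1 read was worth 0.598 to 1.46 CPM before TMM scaling. Reads mapped to several places made up 45.2% to 65.9% of the entries. Rows of the YLR154 locus, which lies within the rDNA, took 4.12% of gene counts in Rio1-depleted library 2 and 1.48% in control library 1, and at most 0.197% in the others. RIO1 mRNA itself was 1.71-fold higher in depleted cells (log2 fold change 0.78 ± 0.17, edgeR adjusted p = 0.00159), which does not check the depletion, since the degron acts on the protein.

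Genes that work with the mitochondrial ribosome were taken from lists of known function, and their counts stand beside the 14.1% of all tested genes called in each direction. Among 9 translation factors, 2 rose and none fell. MEF2, the mitochondrial elongation factor G of ribosome recycling, was 3.11-fold higher, at 72.6, 72.3 and 96.6 CPM in Rio1-depleted libraries and at 21.4, 23.9 and 30.1 CPM in control libraries (log2 fold change 1.64 ± 0.22, edgeR adjusted p = 1.42e-05). The groups lay far apart. FMT1, the formyltransferase of the initiator tRNA, rose as well (0.89 ± 0.33, edgeR adjusted p = 0.0483), but its call was lost in DESeq2 and without any 1 library other than Rio1-depleted library 2 (adjusted p up to 0.249). The FMT1 call was also lost in limma-voom (0.0595) and with no count filter (0.0620). MEF2 and FMT1 were the translation factors without the Puf3 core, whereas the 7 others held it. In the lists below, OXA1, MSR1, MSK1, MSS116, MHR1, TIM13 and PAM18 rose and held the core. MTF1 and MAS2, a gene of protein import, rose without it. Of the core holders, 2 rose and 2 fell in protein import, and 4 of 6 fell in the respiratory chain and ATP synthase. All 6 cytosolic ribosomal protein genes with the core fell. A relation between the core and the change was not tested.

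Of 16 tested genes for mitochondrial aminoacyl-tRNA synthesis, 2 rose and none fell, which is no larger a share than the 14.1% of all tested genes called higher. The median log2 fold change was 0.23. MSR1, the arginyl-tRNA synthetase, stood at 124.5, 103.6 and 125.2 CPM in Rio1-depleted libraries and at 78.7, 89.3 and 55.5 CPM in control libraries (0.68 ± 0.18, edgeR adjusted p = 0.00845). MSK1, the lysyl-tRNA synthetase, had a log2 fold change of 0.57 ± 0.16 (adjusted p = 0.0141). Without control library 3 neither was called (adjusted p = 0.0908 and 0.102), and without Rio1-depleted library 1 MSK1 was not (0.0509). Among 3 genes for ribosome anchoring and insertion at the inner membrane, OXA1, the insertase for mitochondrial translation products, rose 1.51-fold. It stood at 129.7, 106 and 125 CPM in Rio1-depleted libraries and at 82.9, 77.8 and 77.6 CPM in control libraries (0.60 ± 0.15, adjusted p = 0.00591), and stayed called when any 1 library was left out.

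Among 6 genes of mitochondrial transcription and RNA turnover, MTF1, the specificity factor of the mitochondrial RNA polymerase, and MSS116, an RNA helicase of intron splicing, rose (0.64 and 0.40, edgeR adjusted p = 0.0213 and 0.00994). Without control library 3 neither was called (0.0619 and 0.0785), and MTF1 was also lost without Rio1-depleted library 1 or control library 1 or 2 (0.0592 to 0.0786). In DESeq2 MTF1 was not called (0.0572). Of 6 mitoribosomal proteins whose names lie outside the rule, MHR1 rose (0.47, adjusted p = 0.0485), a call lost without any 1 of the 6 libraries (0.0591 to 0.167). The MHR1 call was also lost with RLE size factors (0.0512), with no count filter (0.0691) and in DESeq2 (0.136). None of 7 genes for assembly of the ribosome and modification of its RNA, a list that holds the member RSM22, and none of 15 tested translational activators was called, with median log2 fold changes of 0.20 and 0.05.

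The respiratory chain and ATP synthase, whose core subunits the mitochondrial ribosome makes, had calls only towards lower values among their nuclear genes. Of 37 tested genes 16 fell and none rose, beside 14.1% of all tested genes called in each direction. The median log2 fold change was -0.34. COX6 and COX4, subunits of cytochrome oxidase, had log2 fold changes of -1.09 and -0.92 (edgeR adjusted p = 9.72e-05 and 0.000745), and CYC1, cytochrome c, one of -0.79 (0.00061). With library totals the same list held 2 higher and 6 lower genes and a median of -0.03. HAP4, the limiting subunit of the activator of respiratory genes, fell to 53.2, 62.7 and 66.1 CPM in Rio1-depleted libraries, against 94.4, 77.8 and 133 CPM in control libraries (-0.76 ± 0.20, adjusted p = 0.00783), and was not called without control library 3 (0.107) or with library totals (0.0832). PUF3 itself stood at 222, 183 and 205 CPM in Rio1-depleted libraries and at 230.2, 209 and 217 CPM in control libraries and was not called (-0.11 ± 0.12, adjusted p = 0.540).

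**Figure D5:**
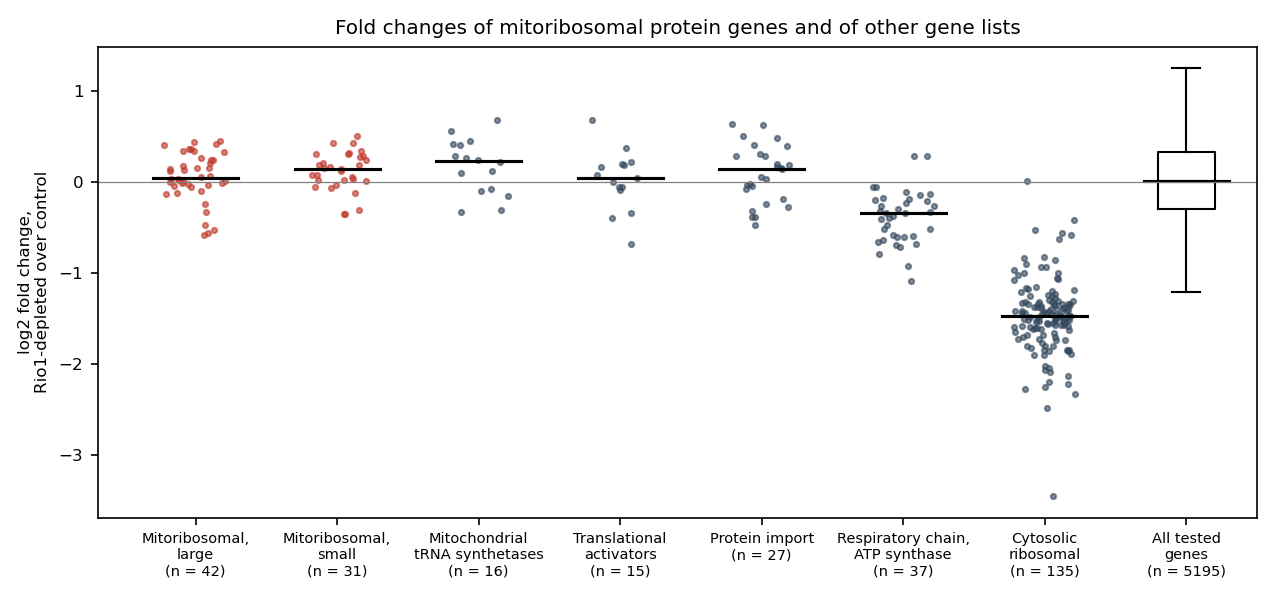
Log2 fold change, Rio1-depleted over control, of each tested gene in the mitoribosomal lists (red) and 5 other lists (blue), with the median of each list as a bar and a box plot of all 5195 tested genes at the right. Mitoribosomal medians (0.05 and 0.15) lie near 0, those of the respiratory chain (-0.34) and the cytosolic ribosome lie below it.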

How the data were processed

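Total RNA depleted of ribosomal RNA was made into ScriptSeq libraries, per the labels' protocols. The authors deposited raw read counts per gene for 6 libraries. Per the submitters' processing notes, the tools were TopHat2 2.0.8, HTSeq and DESeq, with build sacCer3, the same assembly as R64; the strand setting is not given in the sources used here. Rows that name no gene were left out: reads without a feature made up 11% to 17.9% of the entries and ambiguous reads 0.813% to 1.46%.

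Of 6692 gene rows 6008 matched R64 locus tags. edgeR 4.0.16 (R 4.3.3) was used with TMM scaling, filterByExpr (minimum count 10, total 15), the quasi-likelihood test and Benjamini-Hochberg adjustment over 5195 genes; calls were made at 0.05. Standard errors are the log2 fold change over the root of F, and intervals are 95% t intervals. The procedure was tested on simulated data with 200 genes changed 2-fold, of which 83.5% were recovered, with 4 false calls. Smaller changes and a shift in library composition were not simulated. Alternatives used DESeq2 1.42.0 and limma 3.58.1, other scalings and filters, and left-out libraries. Sequences are from RefSeq R64.

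Library values are given for called members and, in each subunit, the 2 highest in CPM per kb and the 2 lowest in CPM; from each other list up to 3 called genes with the largest change are named. Members and lists were chosen with earlier results of these data known.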

Additional observations from a re-analysis of the deposited data

How the results depend on the processing

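Large-subunit members called higher numbered 0 with RLE size factors, with no count filter and in DESeq2, 2 in limma-voom and without the YLR154 genes, and 3 with a mean of at least 50 counts, against 1 as reported. Library totals gave 14, and 15 in the small subunit, with medians of 0.355 and 0.463, and 1748 genes higher and 313 lower over all genes; higher calls were then 84.8% of all calls, against 50%. A mean of at least 50 counts gave 1 small-subunit gene higher. Large-subunit genes called lower numbered 1, MRPL24, with no count filter and without the YLR154 genes. The cause of these shifts was not tested.

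Leaving out 1 library gave 0 to 2 large-subunit genes higher and 0 to 2 lower, 0 to 1 small-subunit genes higher and 0 to 1 lower, medians of 0.033 to 0.128 and 0.108 to 0.198, and 529 to 671 genes higher and 591 to 699 lower over all genes. No named gene changed sign past the threshold.

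Same-numbered libraries did not visibly deviate together (correlations -0.0568, -0.000787 and 0.0774), so no pairing by number was seen. With 3 libraries per group a weak pairing could be missed. With a replicate block 741 genes were higher and 756 lower, and 1 large-subunit member was called, MRPL27 (adjusted p = 0.0356) and not MRPL32 (0.0515), with medians of 0.028 and 0.14. Genes under about 25 CPM, such as MRPL51 and MNP1, rest on few reads.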

Other observations

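Protein import, which brings every nuclear-encoded mitoribosomal protein to its place, had calls in both directions. Of 27 tested genes 3 rose and 3 fell, beside 14.1% of all tested genes called in each direction, and the median log2 fold change was 0.14. TIM13, a chaperone of the intermembrane space, rose (0.63 ± 0.18, edgeR adjusted p = 0.0134), as did PAM18, a J-protein of the import motor (0.41 ± 0.15, 0.0474). TIM50, the presequence receptor of the inner membrane, fell (-0.47 ± 0.11, 0.00293). TIM13 was not called without Rio1-depleted library 3 (0.0748) or control library 2 (0.0587), and PAM18 was called in the absence of 1 library only for control library 1 (otherwise 0.0632 to 0.191). The PAM18 call was also lost with RLE size factors (adjusted p = 0.0501), with no count filter (0.0703) and in DESeq2 (0.138). The Puf3 core was in 70.4% of the list. With library totals 14 of these genes were higher and none lower.

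Outside the members, 716 tested genes held the Puf3 core, of which 111 were called higher and 81 lower (26.8%); their median was 0.06 on the log2 scale, beside 28.3% called over all tested genes.

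VAR1, the ribosomal protein that yeast mitochondrial DNA encodes, did not pass the count filter, with 4, 3 and 7 counts in Rio1-depleted libraries and 14, 8 and 10 in control libraries.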
